A study of Danio rerio with 23 samples.

Results

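The 10 zebrafish genes described here are 8 digestive enzymes of acinar cells of the exocrine pancreas and the paralogs cuzd1.1 and cuzd1.2. The enzymes are prss1, prss59.1, ela2, ela2l, ela3l, cpa5, cpb1 and ctrb1. All 10 genes were chosen by name, to see whether the cuzd1 paralogs follow the acinar enzymes from library to library or move without them. Of these 10 genes, 9 were matched to an identifier among the 31901 features that all 23 count files share. The gene ctrb1 is listed as ctrb.1, and cpa5 was not matched, because the name table gives the mammalian name CPA1 to 2 identifiers. Both are therefore given by their levels only, and "the 7 enzymes" are those without cpa5.

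The study deleted the UCE, a short conserved element of the transcription factor Neurod1, and compared enteroendocrine cells (EECs), the hormone-producing cells of the gut, with and without it. EECs were sorted as GFP+ cells from the dissected gut of Tg(pax6b:GFP)ulg515 larvae of strain AB at 4 dpf, either wild-type (n = 3 libraries) or homozygous for the neurod1 ulg052 allele, here called ΔUCE (n = 4), and no further treatment was given. In the other experiment, dsred+ endodermal cells were sorted at 52 hpf from trunks of Tg(sox17:dsred) embryos, heat-shocked at 38 and 48 hpf, that carried no further transgene (control, n = 3) or an hsp70l-driven transgene for Ascl1a (n = 3), Neurod1 (n = 4), Neurod1ΔUCE (n = 3) or Neurod1ΔECD (n = 3). Each library came from a pool of about 200 larvae (EECs) or about 150 embryos (endoderm), the hsp70l promoter acts in all tissues, and in both experiments the dissection was meant to leave the pancreas out.

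Acinar cells make up most of the exocrine pancreas. They store proteases and other digestive enzymes as inactive zymogens in granules and release them into the gut lumen, where trypsin activates the other zymogens. The transcription factors Ptf1a and Rbpjl drive the acinar enzyme genes. CUZD1 carries CUB and zona pellucida-like domains and in mammals is found on the membrane of pancreatic zymogen granules.

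The total count was between 8626863 and 15894943 per EEC library and between 8364374 and 22301304 per endodermal library. Levels are given as CPM, the reads of a gene scaled to a library of fixed size after TMM normalization, and are compared between libraries and not between genes, since CPM does not take gene length into account. The summed level of the EEC marker list (21 of 25 genes matched) was between 27720 and 80780 CPM in the 7 EEC libraries. A large part of it was the hormone penka (8945 to 53800 CPM), so the sum does not show that each marker was present. pax6b, the gene of the reporter, was between 362.6 and 693.5 CPM, while tac1 did not exceed 3.75 CPM in the ΔUCE libraries. The level of neurod1 was between 475 and 1084 CPM in all 7 EEC libraries, which does not check the genotype labels, because the deletion leaves most of the transcript in place. Replicate libraries of the EECs differed by more than sampling noise (chi-square per degree of freedom from 57.4 to 194), so each was counted as its own sample. Whether replicates came from separate clutches is not stated, and p-values measure only the spread between these libraries.

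2 of the 7 EEC libraries stand apart for the genes described here. Wild-type 3 held 0 reads on each of the 9 matched genes, which at its depth of 8626863 reads allows a level of up to 0.348 CPM for each (3 counts, counting error only). ΔUCE 2 held 0 reads on ela2, ela2l and ela3l, 2 reads on ctrb1 and 8 reads each on prss1 and prss59.1, but 539 reads on cpb1. ΔUCE 2, with a depth of 9590046 reads, held 557 reads on the 7 enzymes, and ΔUCE 4, with 9253275, held 741, of which 460 were on enzymes other than cpb1. In bulk libraries fewer cells of a type and less RNA per cell cannot be told apart.

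The cuzd1 paralogs were at high levels in 3 of the 4 ΔUCE libraries. For cuzd1.1 (ENSDARG00000089050) the level was 29.8, 2.13 and 0 CPM in wild-type 1 to 3, and 384, 2.64, 375 and 76.4 CPM in ΔUCE 1 to 4. For cuzd1.2 (ENSDARG00000025311) it was 17.7, 0.649 and 0 CPM in the wild-type libraries and 487, 1.52, 790 and 143 CPM in the ΔUCE libraries. Both paralogs put ΔUCE 1, 3 and 4 above every wild-type library, and ΔUCE 2 between wild-type 1 and wild-type 2, so the groups overlapped through that 1 library. In reads, the pair went from 0 in wild-type 3 and 30 in wild-type 2 to 15432 in ΔUCE 3.

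The elastases ela2 and ela2l are serine proteases that cut elastin and other proteins. Between wild-type 1 and 2 and ΔUCE 1, 3 and 4, their order was the opposite of that of the cuzd1 paralogs. Among the ΔUCE libraries alone, both ranked 3, 1, 4 and 2 from high to low, as cuzd1.2 did. The level of ela2 (ENSDARG00000056744) was 77.7, 67.4 and 0 CPM in wild-type 1 to 3, against 3.49, 0, 7.70 and 2.99 CPM in ΔUCE 1 to 4. The level of ela2l (ENSDARG00000056765) was 99.9, 98.7 and 0 CPM, against 5.69, 0, 6.80 and 2.79 CPM. Wild-type 1 and 2 were above all 4 ΔUCE libraries for both genes, and the groups overlapped only because wild-type 3 held no reads on them.

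The trypsinogen prss59.1 and the chymotrypsinogen ctrb1, precursors of the main digestive proteases, were also highest in wild-type 1 and 2. For prss59.1 (ENSDARG00000079274) the level was 68.5, 64.3 and 0 CPM in the wild-type libraries and 11.3, 0.811, 34.4 and 5.08 CPM in the ΔUCE libraries. For ctrb1 (ENSDARG00000090428) it was 62.6, 68.4 and 0 CPM, against 6.82, 0.203, 22.1 and 3.69 CPM. The 2 filled wild-type libraries were within 1.07-fold of each other for prss59.1, while the ΔUCE libraries were spread over more than an order of magnitude. The trypsinogen prss1 (ENSDARG00000042993) had no such order, with 33.5, 27.7 and 0 CPM in the wild-type libraries and 14.6, 0.811, 41.0 and 6.58 CPM in the ΔUCE libraries.

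The elastase ela3l and the carboxypeptidase cpb1, which trims basic residues from the ends of peptides, departed from the other enzymes. The level of ela3l (ENSDARG00000007276) was 27.8, 9.54 and 0 CPM in wild-type 1 to 3, against 264, 0, 100.4 and 24.7 CPM in ΔUCE 1 to 4. Its highest levels were thus in ΔUCE 1 and 3, the libraries in which both cuzd1 paralogs were highest. The level of cpb1 (ENSDARG00000045442) was 28.2, 35.3 and 0 CPM in the wild-type libraries and 27.0, 54.7, 143.1 and 28.0 CPM in the ΔUCE libraries, and it was the only enzyme of the 7 with a level above 1 CPM in ΔUCE 2. Of the identifiers named CPA1, ENSDARG00000021339 was at 53.8, 100.1 and 0 CPM in the wild-type libraries and 7.66, 0, 18.7 and 14.6 CPM in the ΔUCE libraries, the order of ela2 and ctrb1 between the genotypes, and ENSDARG00000030915 did not exceed 6.21 CPM in any EEC library.

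**Figure D1:**
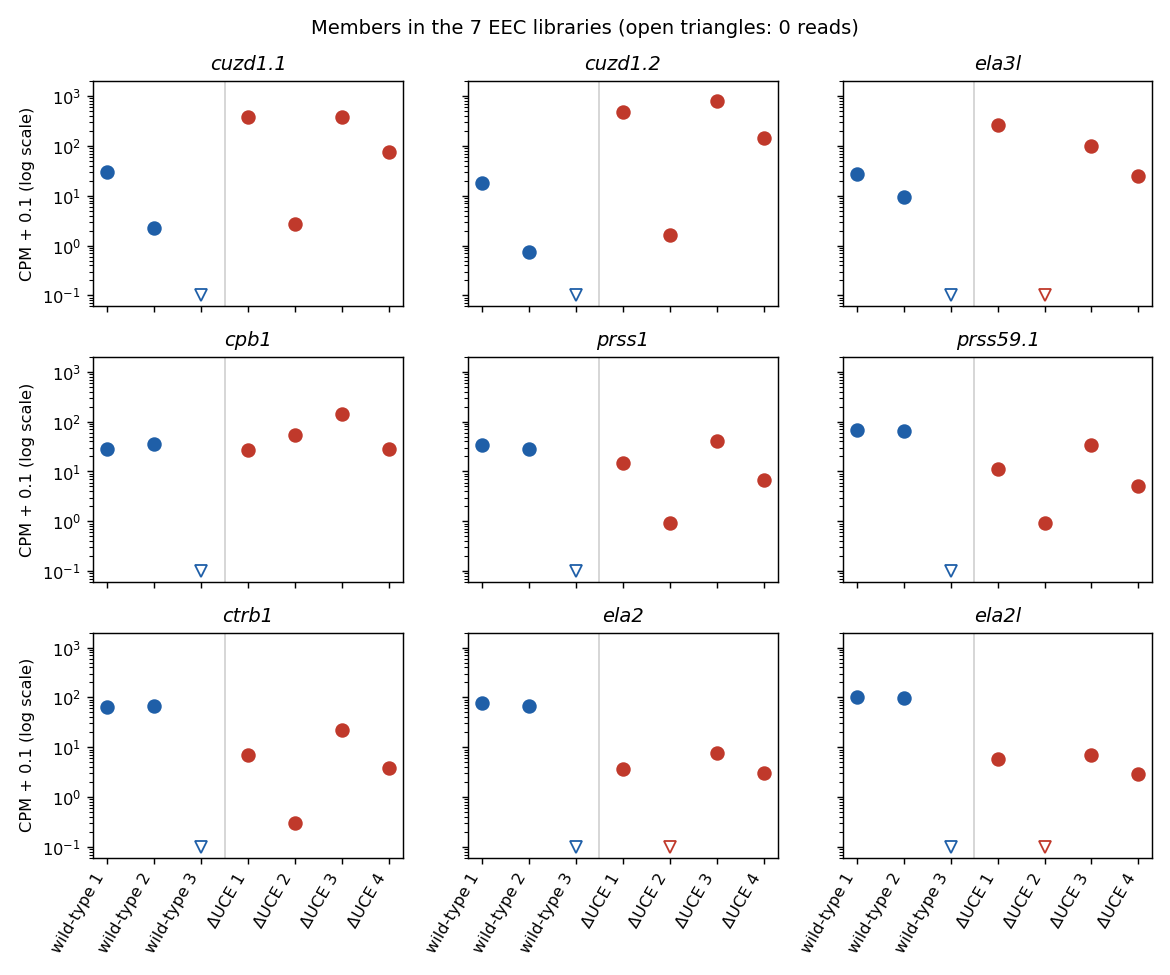
Level of each of the 9 matched genes in the 7 EEC libraries, as CPM + 0.1 on a log axis, with wild-type libraries in blue, ΔUCE libraries in red and open triangles for 0 reads. cuzd1.1 and cuzd1.2 are highest in ΔUCE 1, 3 and 4, ela2 and ela2l in wild-type 1 and 2, and wild-type 3 has no read on any of the 9 genes.

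The enzymes also differed from each other in their share of the reads on the 7 enzymes. The pair ela2 and ela2l took 44.6% of these reads in wild-type 1 and 44.7% in wild-type 2, but 2.76%, 4.08% and 7.83% in ΔUCE 1, 3 and 4. In contrast, ela3l took 6.98% and 2.57% in wild-type 1 and 2, and 79.3%, 28.2% and 33.5% in ΔUCE 1, 3 and 4. The make-up was close to the same in wild-type 1 and 2 and in ΔUCE 3 and 4, while ela3l dominated ΔUCE 1. In ΔUCE 2, cpb1 made up 96.8% of 557 enzyme reads. No test was run on the shares, which rest on 2 wild-type libraries with enzyme reads.

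**Figure D2:**
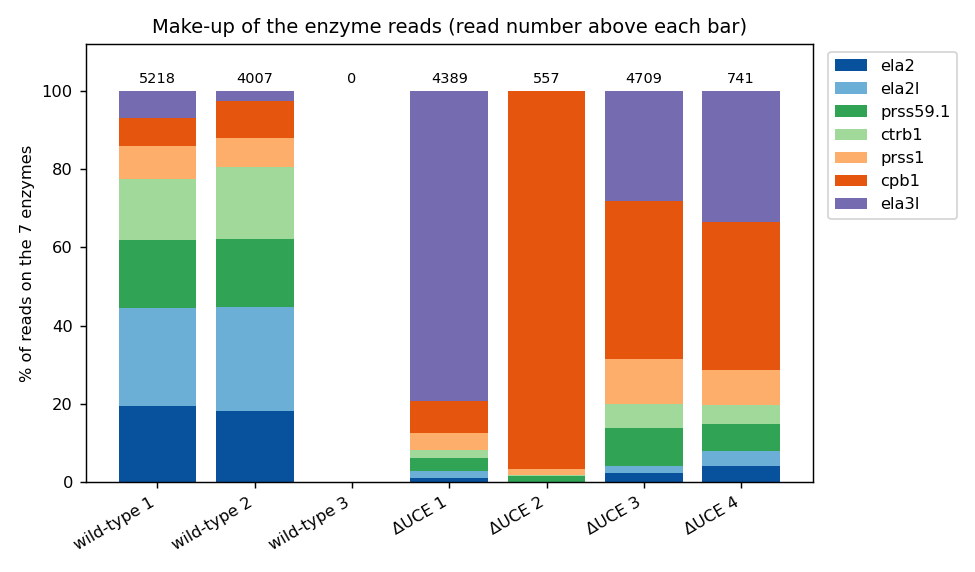
Share of each enzyme in the reads on the 7 enzymes, in percent, for each EEC library, with the number of enzyme reads above the bar. ela2 and ela2l fill 44.6% and 44.7% of wild-type 1 and 2 and at most 7.83% of the ΔUCE libraries, and wild-type 3 has no bar because it held 0 enzyme reads.

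Whether cuzd1 follows the enzymes was read from the ratio of the summed CPM of cuzd1.1 and cuzd1.2 to the summed CPM of the 7 enzymes, as a description with no test. The enzyme sum was 398 CPM in wild-type 1 and 371 CPM in wild-type 2, and 333, 56.5, 355 and 73.9 CPM in ΔUCE 1 to 4. The ratio was 0.119 in wild-type 1 and 0.00749 in wild-type 2, against 2.62, 0.0736, 3.28 and 2.97 in ΔUCE 1 to 4, and it has no value in wild-type 3. ΔUCE 1, 3 and 4 were thus within 1.25-fold of each other in this ratio, although their summed cuzd1 level went from 219.7 CPM in ΔUCE 4 to 1165 CPM in ΔUCE 3, and the lowest of them was 22.0-fold above wild-type 1. That closeness holds for the sum, in which ela3l took 79.3% of the enzyme reads in ΔUCE 1, 28.2% in ΔUCE 3 and 33.5% in ΔUCE 4. The log2 ratio was also taken with the mean log2(CPM + 0.5) of the enzymes in place of their sum. It was then 5.80, 5.23 and 4.87 in ΔUCE 1, 3 and 4. ΔUCE 2 had a ratio below that of wild-type 1 by the sum, but above it by the mean (log2 ratio 1.78 against -0.099). Its ratio by the sum rests on cpb1, which took 539 of the 557 enzyme reads of that library. The mean log2 ratio, with 0.5 CPM added to both sums, was -4.94 ± 2.67 (SD, n = 2) in wild-type and 0.26 ± 2.59 (SD, n = 4) in ΔUCE libraries.

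**Figure D3:**
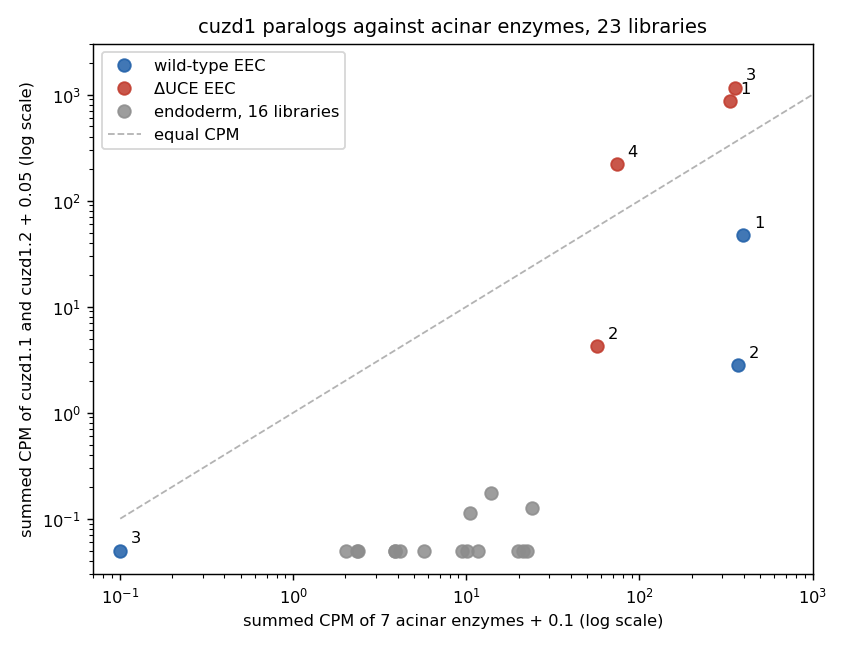
Summed CPM of cuzd1.1 and cuzd1.2 (+ 0.05) against the summed CPM of the 7 acinar enzymes (+ 0.1) in the 23 libraries, both on log axes, with the replicate number beside each EEC library and a dashed line at equal CPM. ΔUCE 1, 3 and 4 lie above the line, wild-type 1 and 2 and ΔUCE 2 below it, and the 16 endodermal libraries have enzyme reads with no or almost no cuzd1 reads. In ΔUCE 2, cpb1 made up 96.8% of the enzyme reads. The line is a guide for the eye only, since CPM does not take gene length into account.

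Within a genotype, cuzd1 moved both with and without the enzymes. Between wild-type 1 and wild-type 2, the level of cuzd1.1 differed 14.0-fold (95% counting interval 9.17 to 22.3) and that of cuzd1.2 differed 27.3-fold (13.0 to 68.6). Over the same pair of libraries, 6 of the 7 enzymes had ratios between 0.800 and 1.21, and ela3l had a ratio of 2.91 (2.33 to 3.66). The paralogs thus differed between these wild-type libraries by far more than any enzyme, and ela3l, the next after them, was higher in the same library.

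From ΔUCE 4 to ΔUCE 3, in contrast, all 9 genes were higher together, by 2.43-fold (ela2l) to 6.77-fold (prss59.1), with cuzd1.1 at 4.91-fold and cuzd1.2 at 5.51-fold inside that range. From ΔUCE 4 to ΔUCE 1, cuzd1.1 was 5.03-fold and cuzd1.2 3.40-fold higher, ela3l was 10.7-fold higher and cpb1 was at a ratio of 0.964. The other 5 enzymes had ratios between 1.17 and 2.22 in this last pair. These intervals cover counting error only, since PCR copies are not told apart by molecular identifiers in these libraries.

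**Figure D4:**
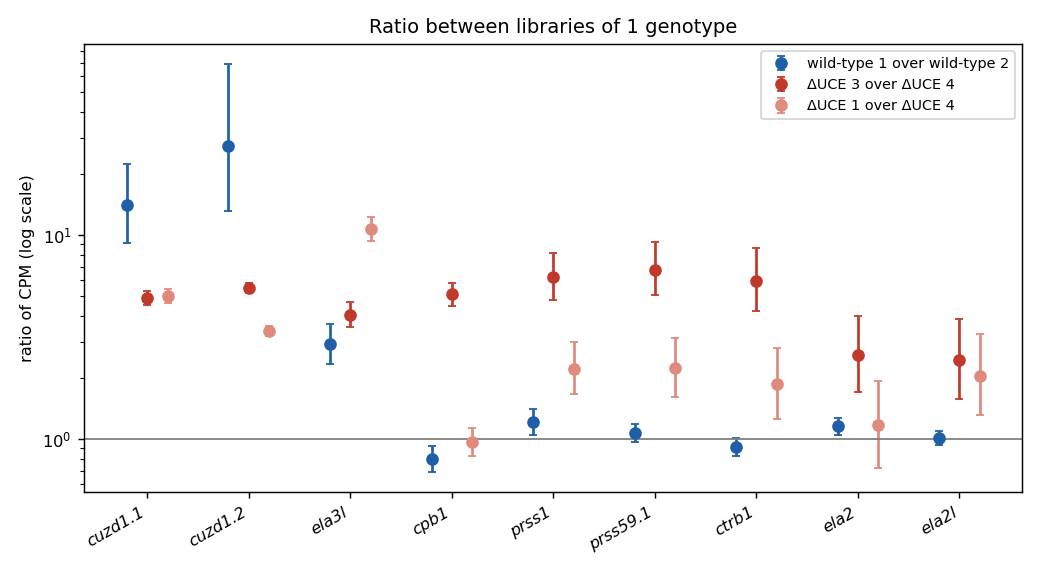
Ratio of CPM between pairs of libraries of 1 genotype for the 9 matched genes, on a log axis, with 95% intervals for counting error. In wild-type 1 over wild-type 2 the cuzd1 paralogs stand at 14.0 and 27.3 while 6 enzymes lie near 1, and in ΔUCE 3 over ΔUCE 4 all 9 genes lie between 2.43 and 6.77.

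The paralogs ranked the libraries in nearly the same order, but their proportion was not constant. cuzd1.2 made up 37.3% of the reads on the pair in wild-type 1 (95% Clopper-Pearson interval 33.5 to 41.2%) and 23.3% in wild-type 2 (9.93 to 42.3%, 30 reads), against 55.9% (55.0 to 56.8%), 36.6% (22.1 to 53.1%), 67.8% (67.1 to 68.6%) and 65.3% (63.2 to 67.2%) in ΔUCE 1 to 4. The share was above 50% in ΔUCE 1, 3 and 4, where the paralogs were at high levels, and below it in the other 3 libraries with reads. Reads that fit both paralogs, or both ela2 and ela2l, may not have been counted for either.

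As a measure of likeness across the 7 EEC libraries, with no test, Pearson's r of log2(CPM + 1) was 0.99 between the paralogs. Of the enzymes, ela3l was most like cuzd1.1 (r = 0.93) and cuzd1.2 (r = 0.89), followed by prss1 (0.63 and 0.56), while ela2 (0.18 and 0.08) and ela2l (0.17 and 0.06) were least like them. All 7 points share 1 normalization, and 2 of them held few or no enzyme reads. They also pool the genotypes, and ela2 and ela2l were higher in wild-type 1 and 2 than in every ΔUCE library. Among the ΔUCE libraries alone, both ranked in the order of cuzd1.2. Their low r therefore does not show that they moved apart from cuzd1 within a genotype. Outside the members, the genes most like cuzd1.1 were rmdn3, FAM135A, zgc:162472, CCAR1 and zgc:194621 (r from 0.97 to 1.00), and those most like cuzd1.2 were FAM135A, zgc:162472, rmdn3, si:ch211-214c7.4 and CCAR1 (r from 0.97 to 1.00). Among 16154 genes and 7 libraries such values occur for genes whose levels differ little in size: rmdn3 went from 13.3 to 41.5 CPM only. The genes most like the summed enzymes were GDE1, si:dkey-204f11.64, si:ch73-127m5.2, DDAH2 and slc39a1 (r of 0.98 to 0.99).

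The fit of ΔUCE against wild-type EECs was made with edgeR's quasi-likelihood test over 16154 genes, at an FDR of at most 0.1. All 9 matched genes passed the filter on low counts and 0 were called, where 3 of all genes tested were called (0.0186%). At an unadjusted p under 0.05, edgeR gave 4 of the 9 (cuzd1.1, cuzd1.2, ela2 and ela2l) and 597 of all genes (3.70%). DESeq2 called 0 and gave 2 at that p, where it called 189 (0.736%) and gave 1354 (5.27%) of the 25679 genes with any read. With limma voom 0 were called and 0 given, where it called 22 (0.136%) and gave 1407 (8.71%) of all genes. The log2 fold change was 4.29 (SE 1.71) for cuzd1.1, 5.84 (SE 1.94) for cuzd1.2 and 2.96 (SE 1.75) for ela3l. It was -3.76 (SE 1.55) for ela2, -4.10 (SE 1.54) for ela2l, -2.41 (SE 1.47) for ctrb1 and -1.78 (SE 1.39) for prss59.1, and the remaining values were 1.58 (SE 1.18) for cpb1 and -0.37 (SE 1.39) for prss1. The adjusted p of edgeR was 0.9999 for each of the 9. The median of the 9 log2 fold changes was -0.37, that of all genes 0.02. In the study, both cuzd1 genes were reported as highly upregulated in the mutant, at an FDR of at most 0.1. That comparison was made with DESeq2 and with more wild-type EEC libraries, some of them from another series. Those further libraries were not used here.

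None of the 9 differences passed the FDR of 0.1 over all genes tested, which does not show that there was none. An alternative added after the data were seen left out wild-type 3 and ΔUCE 2, which leaves 2 wild-type and 3 ΔUCE libraries. Both were picked for their few reads on the enzymes tested, so smaller errors and p-values there follow in part from that choice. The log2 fold change of ela2l was then -4.30 (SE 0.52, edgeR adjusted p = 0.145) and that of ela2 was -3.95 (SE 0.58, edgeR adjusted p = 0.195). The cuzd1 paralogs kept larger errors there, with 4.09 (SE 1.17, edgeR adjusted p = 0.836) for cuzd1.1 and 5.65 (SE 1.38, edgeR adjusted p = 0.804) for cuzd1.2. Over all 14 alternatives the adjusted p was between 0.145 and 1 for ela2l, 0.195 and 1 for ela2, 0.403 and 1 for cuzd1.1 and 0.153 and 1 for cuzd1.2. Without both libraries 0 of the 9 and 0 of 17591 genes were called, with 7 and 958 at an unadjusted p under 0.05. Without wild-type 1 alone, the values were 7.58 for cuzd1.1 and 10.01 for cuzd1.2, and prss1 stood at 0.18, on the other side of 0. Under limma voom, which moved the median of all genes by -0.12, ela3l was at -0.31.

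**Figure D5:**
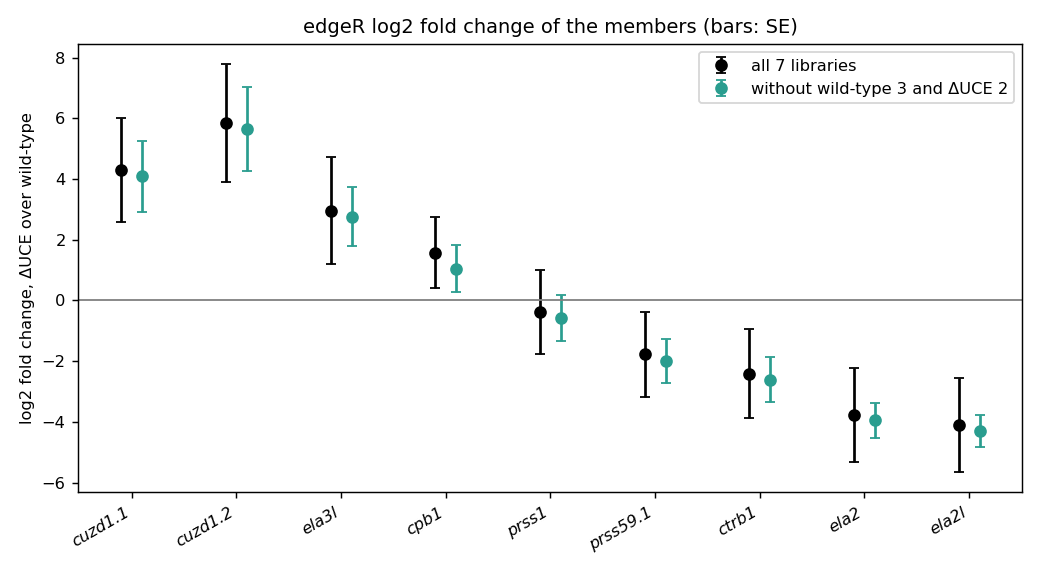
Log2 fold change of ΔUCE over wild-type EECs from edgeR for the 9 matched genes, with SE bars, from all 7 libraries (black) and without wild-type 3 and ΔUCE 2 (green). The SE of ela2l goes from 1.54 to 0.52 between the fits, and the value from -4.10 to -4.30. Both libraries were left out for their few enzyme reads, so a smaller SE follows in part from that choice.

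Other genes of acinar cells were read from lists chosen by name. Of 30 further secreted acinar products, 18 were matched, 8 were tested and 0 were called by edgeR, with 1 at an unadjusted p under 0.05. Their median log2 fold change was -1.20, with 6 of the 8 negative. The trypsinogen prss59.2, at 173, 198 and 2.53 CPM in wild-type 1 to 3 and 133, 4.06, 213 and 44.1 CPM in ΔUCE 1 to 4, was highest in the 5 libraries that held reads on ela2, ela2l and ela3l, with no order between the genotypes among them. The chymotrypsinogen ctrb.3 had the order of ctrb1, with 59.8, 128 and 0 CPM in wild-type libraries and 1.21, 0, 19.5 and 7.08 CPM in ΔUCE libraries. The amylase amy2a (0.710 to 17.0 CPM) had its highest level in wild-type 3, where the members had 0 reads. The Kazal-type inhibitor family gene spink4 had the order of cpb1 in its extremes, with 51.2 CPM in ΔUCE 3 and 49.6 CPM in ΔUCE 2 as its highest levels and 3.34 CPM in wild-type 3 as its lowest. The protease gene ctrl was highest in ΔUCE 3 (70.9 CPM), and c6ast4 in wild-type 2 (20.5 CPM).

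Of 12 regulators and other markers of acinar cells, 11 were matched, 9 were tested and 0 were called by edgeR, with 0 at an unadjusted p under 0.05 (median log2 fold change 0.21, 6 positive and 3 negative). The factors ptf1a and rbpjl, named after their values were seen, and the pancreatic protein disulfide isomerase pdia2 had reads in wild-type 1 and 2 and ΔUCE 1, 3 and 4 and 0 reads in wild-type 3 and ΔUCE 2. ptf1a was at 3.66, 3.15, 4.93, 19.7 and 2.69 CPM in these 5 libraries, and rbpjl at 8.70, 2.87, 6.22, 9.66 and 3.69 CPM. pdia2 was at 42.6, 21.4, 94.7, 154 and 41.2 CPM in the same order. These are the 5 libraries that held reads on ela2, ela2l and ela3l. Other genes of the list did not have this pattern. The acinar factor bhlha15 was highest in wild-type 3, at 5.46 CPM, and had 0 reads in wild-type 1 and ΔUCE 3. nr5a2 was also highest in wild-type 3 (38.1 CPM, against 2.23 to 14.3 CPM in the others), and xbp1, gata6, gata4 and rab3da, which are not restricted to acinar cells, had reads in all 7 libraries.

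Set against pdia2, a reference chosen after its values were seen, the cuzd1 sum was higher and the enzyme sum lower in ΔUCE 1, 3 and 4 than in wild-type 1 and 2. The summed cuzd1 level was 1.12 and 0.130 times that of pdia2 in wild-type 1 and 2, and 9.20, 7.57 and 5.34 times in ΔUCE 1, 3 and 4. The summed level of the 7 enzymes was 9.35 and 17.4 times that of pdia2 in wild-type 1 and 2, and 3.51, 2.31 and 1.79 times in ΔUCE 1, 3 and 4. The cuzd1 sum was also higher in each of these 3 ΔUCE libraries than in either wild-type library when set against ptf1a (59.12 to 177 times, against 0.882 and 13.0 times) or rbpjl (59.6 to 140.1 times, against 0.968 and 5.46 times). The order of the enzyme sum depended on the reference: it was lower in the 3 ΔUCE libraries against pdia2 and ptf1a, but against rbpjl ΔUCE 1, at 53.5 times, was above wild-type 1, at 45.8 times.

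Markers of other cells differed between the same libraries. The hepatocyte list (15 of 15 genes matched) summed to 4306 CPM in wild-type 2 and to between 24.5 and 467 CPM in the other 6 libraries, and its defining gene fabp10a was at 127 CPM in wild-type 2, 0.687 CPM in wild-type 1 and 0 in the others. The smooth muscle and mesenchyme list (8 of 12 matched) summed to 27.8, 443 and 80.1 CPM in wild-type 1 to 3. In ΔUCE 1 to 4 it summed to 536, 12.7, 800 and 67.9 CPM, highest in the 2 libraries that were highest in cuzd1. Most of the sum in ΔUCE 1 and 3 was the collagen genes col1a1a (333 and 461 CPM) and col1a2 (140 and 235 CPM). The smooth muscle gene acta2 went the other way, with 9.77, 11.4 and 5.67 CPM in wild-type 1 to 3. It was at 0, 2.43, 0.151 and 0 CPM in ΔUCE 1 to 4. The enterocyte list (15 of 21 matched) summed to 2733, 5496 and 2950 CPM in wild-type 1 to 3 and to 3506, 6144, 9188 and 6149 CPM in ΔUCE 1 to 4, with a median log2 fold change of 1.44, 13 of 15 positive and 0 called by edgeR (1 at an unadjusted p under 0.05). The islet list (11 of 15 matched) summed to 1383 to 4405 CPM. Of its 9 genes tested, 0 were called by edgeR and 4 were at an unadjusted p under 0.05 (3.70% of all genes). Its genes of highest mean CPM were pcsk2 (345 to 1634 CPM) and pcsk1 (206 to 1428 CPM), so the sum does not show that islet cells were present. The beta cell hormone ins of that list did not exceed 1.42 CPM in any of the 7 EEC libraries. The somatostatin genes of that list did not share this. sst1.2 was at 960 CPM in ΔUCE 3, the library highest in cuzd1.2, and at most 7.10 CPM in the other EEC libraries. sst2, which the study also probed as an EEC hormone, was at 21.2, 4.17 and 56.3 CPM in wild-type 1 to 3 and 219, 195, 1053 and 39.8 CPM in ΔUCE 1 to 4. The part of other cells in the levels of the members was not tested.

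In the endodermal cells at 52 hpf, the enzymes were present without cuzd1. cuzd1.2 had 0 reads in all 16 libraries, and cuzd1.1 had 4 reads in all, in 3 of the 16 libraries, at most 2 in any. These are under the 3 counts taken as the floor, 0.135 to 0.359 CPM depending on depth. The same libraries held 2368 reads on the 7 enzymes, from 23 to 418 per library, that is 1.69 cuzd1 reads per 1000 enzyme reads. The enzyme sum was between 1.92 and 23.9 CPM (median 9.64 CPM), below every EEC library other than wild-type 3. This sum leaves out the identifiers named CPA1. Of these, ENSDARG00000021339 was between 0 and 40.1 CPM (median 12.2 CPM), above the floor in 14 of the 16 libraries. Its median was thus above that of the sum, although CPM does not take gene length into account. ENSDARG00000030915 did not exceed 6.155 CPM. At the ratio of cuzd1 to enzyme reads of wild-type EEC 2, the 2368 enzyme reads would come with 17.7 cuzd1 reads, at that of wild-type EEC 1 with 282 and at that of ΔUCE EEC 1 with 6198, against the 4 counted. These ratios come from EECs at 4 dpf, another stage, sorting gate and dissection, so they give a scale and not an expectation. Why the endoderm held so few cuzd1 reads was not tested.

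The shares of the enzymes in the endoderm were unlike those of the wild-type EEC libraries. prss1 and cpb1 together made up between 31.7% and 95.7% of the enzyme reads (median 78.7%), against 15.5% and 17.0% in wild-type EEC 1 and 2 and 12.5%, 98.2%, 51.8% and 46.8% in ΔUCE EEC 1 to 4. The pair ela2 and ela2l made up between 0 and 28.6% (median 4.17%), below the 44.6% and 44.7% of wild-type EEC 1 and 2, with the ΔUCE EEC libraries (0 to 7.83%) inside this range. prss1 was above the floor in 16 of 16 libraries (0.355 to 9.31 CPM) and cpb1 in 15 of 16 (up to 16.1 CPM), while ela2 and ela2l were above it in 5 of 16 libraries each and did not exceed 0.840 CPM. prss59.1 (up to 3.32 CPM) was above the floor in 8 libraries, ela3l (up to 2.98 CPM) and ctrb1 (up to 3.00 CPM) in 9 each. The amylase gene amy2al1, also named after its values were seen, at 23.6 to 87.1 CPM in the 16 endodermal libraries, did not exceed 1.79 CPM in the EEC libraries.

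No difference with a transgene was detected for the members. The enzyme sum was between 2.25 and 9.31 CPM in control libraries (median 3.77, n = 3), 9.97 and 22.2 CPM with Ascl1a (median 10.4, n = 3), 1.92 and 13.8 CPM with Neurod1 (median 3.92, n = 4), 2.22 and 23.9 CPM with Neurod1ΔUCE (median 11.5, n = 3) and 5.57 and 21.3 CPM with Neurod1ΔECD (median 19.7, n = 3). The control range overlapped that of each transgene except Ascl1a, whose lowest library was just above the highest control. In 1 edgeR fit of all 16 libraries over 18911 genes, 4 of the 9 matched genes were tested (prss1, cpb1, ela3l and ctrb1). 0 of the 4 were called against control with Ascl1a (0.0159% of all genes), Neurod1 (0.0423%), Neurod1ΔUCE (0.0582%) or Neurod1ΔECD (0.0423%). By edgeR 0 were at an unadjusted p under 0.05, against 6.11%, 4.25%, 7.11% and 6.13% of all genes in the same order. DESeq2, which was fitted to the 8 of the 9 with any read, and limma voom, which tested the same 4, also called 0 in each comparison. In the same order, DESeq2 called 0.32%, 0.39%, 0.833% and 0.253% of all genes, and limma voom 0.0106%, 0.0635%, 0.037% and 0.19%. A gene that DESeq2 left without an adjusted p was counted as not called. Its shares of all genes are over the 28439 genes with any read. At an unadjusted p under 0.05, DESeq2 gave 1 of 8 with Neurod1ΔUCE (6.81% of all genes), and limma voom gave 1 of 4 with Ascl1a (10.8% of all genes) and 2 of 4 with Neurod1ΔECD (13.3% of all genes). The 4 comparisons share the 3 control libraries.

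The largest log2 fold change among these was that of ela3l with Neurod1ΔUCE, at 3.60 (SE 1.79, edgeR adjusted p = 0.727), from 0.178, 0.305 and 2.98 CPM against 0, 0 and 0.236 CPM in control libraries. prss1 was at 0.359, 0.509 and 5.54 CPM in the 3 control libraries, so that the control libraries spanned most of the range over all 16 libraries (0.355 to 9.31 CPM). The beta cell hormone ins was between 0 and 624 CPM in the 16 libraries (median 43.2 CPM), and the part of pancreatic cells in the enzyme levels was not tested.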

How the data were processed

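RNA of sorted cells was amplified with the Smart-seq2 protocol (13 PCR cycles) and sequenced in single reads of 75 bases. The authors mapped reads with STAR 2.5.4b to GRCz11 and deposited raw counts per gene, without normalization. The strand setting of the counting is not given in the sources used here, so counts of overlapping genes and near-identical paralogs are uncertain. Of the features, 29194 identifiers were paired with a name. The members and lists were chosen with earlier results of these data known.

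Counts were analysed in R 4.3.3 with edgeR 4.0.16 (TMM, filterByExpr by group, quasi-likelihood F test), with 1 fit for the 7 EEC libraries and 1 for the 16 endodermal libraries. P-values were adjusted by the Benjamini-Hochberg method over all genes tested, and genes with an FDR of at most 0.1 were called. Standard errors were derived from the F statistic. The edgeR fit was also run on simulated counts with known changes, drawn around a common mean for each gene. The simulation did not model libraries empty for a set of genes, so it does not show the power for the members. Named genes were the members, up to 6 genes of each acinar list and 2 of other lists by mean CPM, and 5 genes by likeness to each reference, and others were chosen after their values were seen. Alternatives were DESeq2 1.42.0, limma voom with quality weights (limma 3.58.1), RLE normalization, no filter, an FDR of 0.05, a replicate block, a mean above 10 CPM, library sizes without acinar genes, only the compared groups and each library left out. No sequences of the members were used here.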

Additional observations from a re-analysis of the deposited data

Results flagged for a closer look

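Each matched member was checked for a library far from the others in the 4 Neurod1 endodermal and the 4 ΔUCE EEC libraries, except cuzd1.2 in the former, where it had 0 reads throughout. Of these 17 sets, 4 had one by Dixon's test. Its limit, which chance passes in about 5% of sets, is meant for normal values. A gene with reads in a single library of the group passes it by construction, so the 4 cannot be set against that 5%. All 4 were in the Neurod1 endodermal libraries. cuzd1.1 was at 0.123 CPM (2 reads) in replicate 3 and 0 in the others. prss59.1 was at 0.600 CPM in replicate 4 and 0 in the other 3 libraries, and ela2 was at 0.840 CPM in the same replicate against 0 to 0.0766 CPM. cpb1 was at 4.20 CPM in replicate 3, with the others between 0.840 and 1.33 CPM.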

How the results depend on the processing

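The number of members called was 0 under each alternative that was run, in each of the 5 comparisons. In the EEC fit the log2 fold changes of cuzd1.1, cuzd1.2, ela2, ela2l, cpb1, ctrb1 and prss59.1 kept their direction under all 14 alternatives each. ela3l was at -0.31 under limma voom, which moved the median of all genes by -0.12, and prss1 was at 0.18 without wild-type 1 and 0.032 without ΔUCE 2; the cause was not tested. With each library left out in turn, the log2 fold change was between 3.71 and 7.58 for cuzd1.1, 5.09 and 10.01 for cuzd1.2, -4.47 and -3.24 for ela2, -4.68 and -3.68 for ela2l, 1.74 and 4.34 for ela3l, 0.79 and 2.16 for cpb1, -1.47 and 0.18 for prss1, -2.94 and -1.32 for prss59.1, and -3.60 and -1.93 for ctrb1. The difference in log2 ratio of cuzd1 to the enzymes was between 3.32 and 7.09 in the same way, and 6.34 with the mean of log2 levels in place of the sum. Since wild-type 3 has no ratio, the low end rests on wild-type 1 as the only wild-type library. The high end rests on wild-type 2 in the same manner.

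The number of genes called moved by more. In the EEC fit it was 3, against 189 with DESeq2, 22 with limma voom, 38 with no filter, 0 without both wild-type 3 and ΔUCE 2, and 0 to 4 with 1 library left out. For Ascl1a it was 3, against 91 with DESeq2, 0 at an FDR of 0.05, 0 with only the compared groups in the fit and 0 to 2 with 1 library left out. For Neurod1 it was 8, against 111 with DESeq2, 14 with only the compared groups and 0 to 11 with 1 library left out. For Neurod1ΔUCE it was 11, against 237 with DESeq2, 7 with limma voom, 20 with no filter, 0 with only the compared groups and 1 to 65 with 1 library left out. For Neurod1ΔECD it was 8, against 72 with DESeq2, 36 with limma voom, 2 at an FDR of 0.05, 3 with only the compared groups and 0 to 4 with 1 library left out.

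Deviations of same-numbered EEC libraries from their group means had correlations of 0.04, 0.02 and -0.16, and those of endodermal libraries were between -0.41 and 0.34, above 0 in 10 of 12 pairs. In no comparison was every pair over 0.1, so the numbers were not taken to pair the libraries. Each library correlated best with the control of its own number in 3 of 3 cases for Ascl1a, 2 of 3 for Neurod1 and Neurod1ΔECD and 1 of 3 for Neurod1ΔUCE and the EECs, a hint from the data and not the design. With the replicate block, 0 genes were called in the EEC fit, 0 for Ascl1a, 7 for Neurod1, 5 for Neurod1ΔUCE and 3 for Neurod1ΔECD, and 0 members in each. An alternative pseudocount for the likeness between genes was not run. Spearman's rho and r with libraries left out, both planned for that likeness, are not given here.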
